A study of Triticum aestivum with 4 samples.

Results

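Photosystem II transcripts of 3 genes, PSBR, PsbO and PsbP, were followed on the GeneChip wheat array in flag leaves, the uppermost leaf of the wheat plant and a main source of carbon for the grain. Their 6 probe sets are every entry of 4 sequence clusters among the 61290 probe sets of the table. A probe set is a group of short probes whose signals are summarised into 1 value for a transcript. PSBR was read by 3 probe sets of 1 cluster, which are Ta.28750.2.A1_x_at of its second subcluster and 2 of its first subcluster, called PSBR S1_at and PSBR S1_x_at here by the ends of their names. PsbO was read by Ta.841.1.S1_a_at, and PsbP by Ta.85.1.S1_at and TaAffx.120874.1.S1_x_at, which belong to separate clusters. The clusters were chosen on the log2 difference between UD-2 and WT, already known when they were taken, the PSBR cluster because it was among the transcripts called lower. This difference is therefore given as a description of the members and carries no test. The platform annotation pairs Ta.841.1.S1_a_at with LOC543291 (synonyms OEE1 and PsbO) and both PsbP probe sets with LOC543290 (synonyms OEE2 and PsbP). It pairs no gene with the PSBR cluster, whose name rests on the rice and Arabidopsis matches that the study lists.

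RNA was compared between wild-type plants of the spring wheat genotype CB037 (WT) and UD-2, T2 progeny of a single CB037 transformation event. UD-2 carries ZmDof1, a maize Dof transcription factor, behind the constitutive UBI4 promoter of sugarcane, on a plasmid with an nptII selection cassette, so that the event and its transgene cannot be told apart. Both lines were grown together in a greenhouse with a 10/14 h photoperiod, at 29°C by day and 24°C by night, and flag leaves were taken at anthesis. Each line was represented by 2 arrays, and each array held RNA pooled from 3 plants of its own.

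Photosystem II is the complex of the thylakoid membrane that uses light to take electrons from water and releases oxygen. Its oxygen-evolving complex holds a manganese cluster on the inner side of that membrane. PsbO binds next to the cluster and stabilises it, and PsbP helps to retain the calcium and chloride that water oxidation needs. PsbR is a small membrane-anchored subunit which in Arabidopsis is needed for the stable attachment of PsbP. All of these proteins are encoded in the nucleus and imported into the chloroplast. Bread wheat holds related copies of such genes in each of its subgenomes, and a probe set can collect signal from more than 1 copy.

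The arrays carry values on the log2 scale, on which a difference of 1 is a doubling, made by robust multiarray average (RMA). The median log2 signal was between 4.53 and 4.60 on the 4 arrays. The 95th percentile of 42 Bacillus control probe sets, which no wheat transcript should bind, was taken as the background level and was between 3.93 and 4.17. The leaf marker Rubisco large subunit gene (synonym rbcl) reached a log2 signal of 14.57 on its brightest probe set, and the annotation used here names no probe set for the Rubisco small subunit or the chlorophyll a-b binding proteins. Of 22 probe sets for grain proteins (gliadins, glutenins, avenin-like proteins and alpha-amylase inhibitors), 17 were under the background level on all 4 arrays, and none was named for puroindoline. Their summed linear signal was 1540 and 1645 in WT and 2076 and 1937 in UD-2. Most of it came from the avenin-like Ta.27777.1.S1_at, with log2 signals of 10.27 and 10.36 in WT and 10.79 and 10.66 in UD-2. Its part in the photosystem II values was not tested. The ubiquitin control read at its 3′ end against its 5′ end, a measure of RNA integrity, differed by −0.83 and −0.83 in WT and by −0.96 and −0.77 in UD-2 on the log2 scale, so that the lines overlapped. The control for the ribosomal RNA of the small subunit had log2 signals of 12.03 and 12.06 in WT and of 11.18 and 11.74 in UD-2, and its part in the values below was not tested.

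PSBR transcripts were lower in UD-2 on each of the 3 probe sets of the cluster, by more than a halving of signal. The log2 signal of PSBR S1_at was 13.43 and 13.61 in the WT pools and 12.13 and 12.14 in the UD-2 pools. The lines were thus well apart, with a distance of 1.29 between the lower WT pool and the higher UD-2 pool, against a distance of 0.18 between the WT pools. The mean was 13.52 ± 0.13 in WT and 12.14 ± 0.01 in UD-2 (SD, n = 2 each), which leaves UD-2 at 38.3% of the WT signal. PSBR S1_x_at gave 13.48 and 13.71 in WT and 12.15 and 12.19 in UD-2, or 37.1% of the WT signal. Ta.28750.2.A1_x_at gave 13.40 and 13.52 in WT and 12.53 and 12.15 in UD-2, or 46.0% of the WT signal. On this probe set UD-2 replicate 1 stood above UD-2 replicate 2 by 0.37, while the WT pools lay within 0.13 of each other. No UD-2 value of the cluster exceeded 12.53 and no WT value was under 13.40. Averaged over the 3 probe sets, the log2 difference between UD-2 and WT was −1.31, and UD-2 kept 40.3% of the WT signal.

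**Figure D1:**
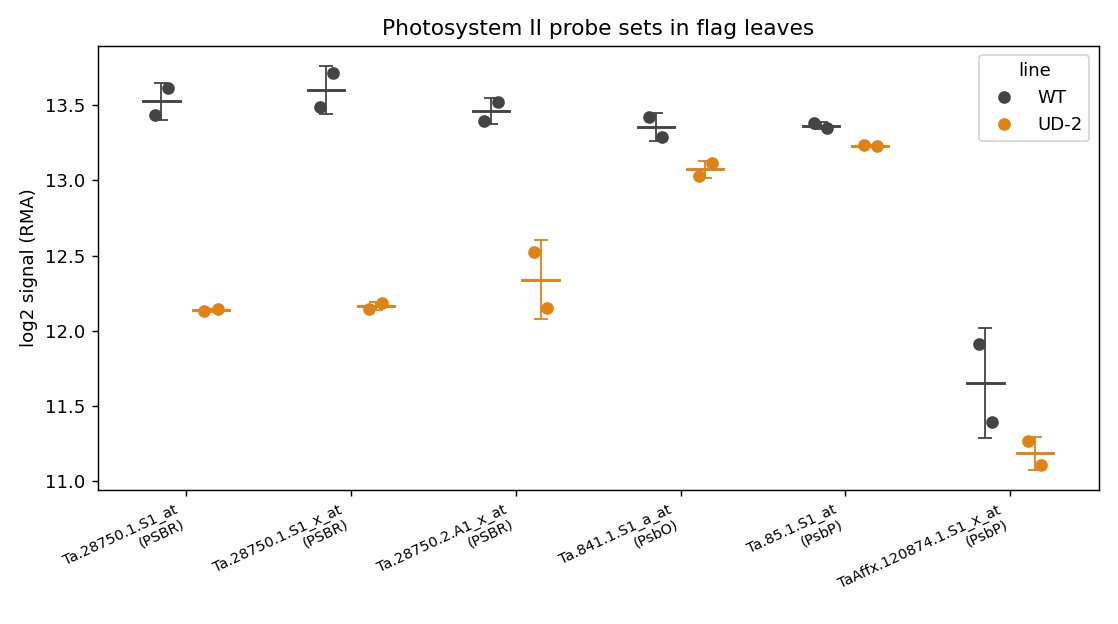
Log2 RMA signal (vertical axis) of the 6 photosystem II probe sets, with their full names on the horizontal axis, in WT (grey) and UD-2 (orange). Points are single arrays, horizontal bars the mean of a line and whiskers its SD (n = 2). The PSBR probe sets lie between 13.40 and 13.71 in WT and between 12.13 and 12.53 in UD-2, and the PsbO and PsbP lines lie closer together.

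PsbO, the manganese-stabilising protein, had a smaller difference between the lines. The log2 signal of Ta.841.1.S1_a_at was 13.42 and 13.29 in WT and 13.03 and 13.11 in UD-2. Both UD-2 pools were under both WT pools, but the lines came within 0.17 of each other, close to the distance of 0.13 between the WT pools. The means of 13.35 ± 0.09 and 13.07 ± 0.06 (SD, n = 2 each) gave a log2 difference of −0.28 with a standard error of 0.12 from limma, and UD-2 was at 82.3% of the WT signal.

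The probe sets of PsbP gave differences of unlike size for the same gene. Ta.85.1.S1_at had log2 signals of 13.38 and 13.34 in WT and of 13.23 and 13.23 in UD-2. These pools were tight, with distances of 0.03 in WT and 0.01 in UD-2, and the log2 difference was −0.13 (standard error 0.11 from limma), or 91.3% of the WT signal. TaAffx.120874.1.S1_x_at had log2 signals of 11.91 and 11.39 in WT and of 11.27 and 11.11 in UD-2. Here WT replicate 1 stood alone, 0.52 above WT replicate 2, and WT replicate 2 was only 0.13 above the higher UD-2 pool. The log2 difference of −0.47 (standard error 0.19 from limma) therefore was smaller than the distance between the WT pools. It was −0.21 without WT replicate 1 and −0.73 without WT replicate 2. The x in its name marks a probe set with probes that also match other sequences. PSBR S1_x_at and Ta.28750.2.A1_x_at carry the same mark, so this limit holds for them too.

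All 6 probe sets had both UD-2 pools under both WT pools, as had 25.9% of the 61115 probe sets that are not controls. Of the 6, 3 passed an adjusted p under 0.05 as lower in limma's test across the array, all of them PSBR, as did 0.281% of all probe sets tested. With Benjamini-Hochberg adjustment 2 of them passed, Ta.28750.2.A1_x_at no longer, as did 0.16% of all. With the replicate number as a block 0 of the 6 passed, and 27 of the 61115 probe sets tested did. With any 1 array left out, 1 line rests on a lone array, and the average PSBR log2 difference ran from −1.40 to −1.22. The median log2 difference was −0.79 over the members and −0.02 over all probe sets tested. The contrast between the lines was used to choose the clusters. The 3 probe sets that passed belong to 1 cluster, and 2 of them have names that imply a shared target sequence. Nothing is therefore read from these counts. In a flag leaf pool, fewer cells of a type and less RNA per cell cannot be told apart. The p-values of the array-wide test measure only the spread between pools of 3 plants.

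**Figure D2:**
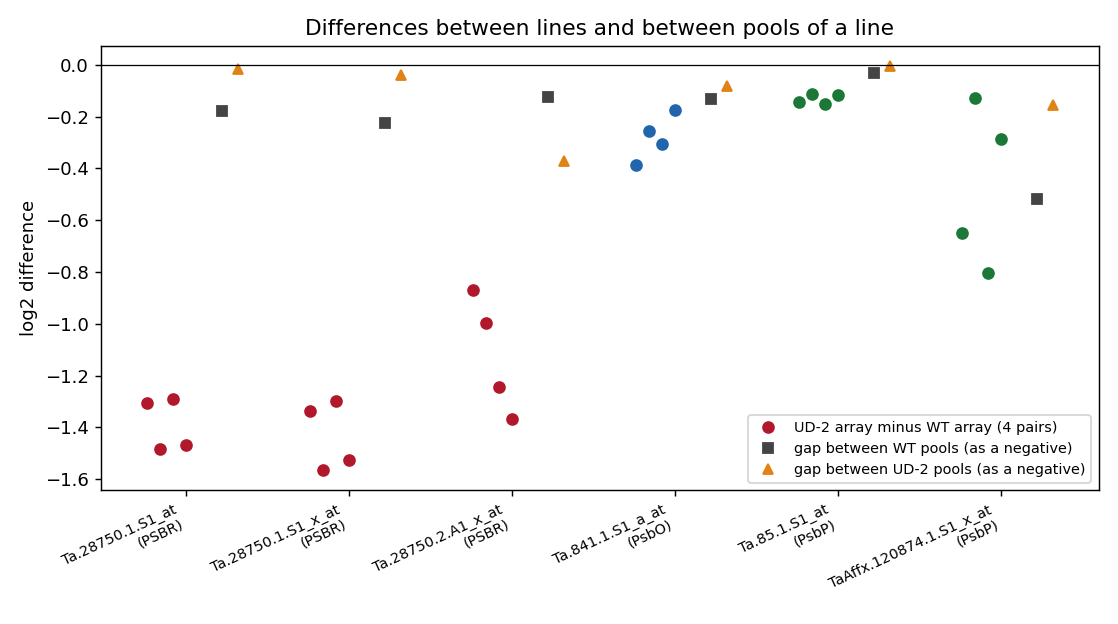
Log2 differences of each UD-2 array from each WT array (4 circles per probe set, red for PSBR, blue for PsbO, green for PsbP), with the distance between the pools of WT (grey squares) and of UD-2 (orange triangles) drawn as negative values. For the PSBR probe sets the differences between lines run from −1.56 to −0.87 and lie beyond the distances between pools, which reach 0.37, while for TaAffx.120874.1.S1_x_at they run from −0.80 to −0.13 around a WT distance of 0.52.

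Agreement among probe sets was examined within each array, where a value common to the array drops out. PSBR S1_x_at minus PSBR S1_at was 0.05 and 0.10 in WT and 0.02 and 0.04 in UD-2 on the log2 scale, so that the pair moved together. Both belong to the first subcluster, and their names imply a shared target sequence. Ta.28750.2.A1_x_at minus PSBR S1_at was −0.04 and −0.09 in WT, 0.40 in UD-2 replicate 1 and 0.01 in UD-2 replicate 2. The probe sets of the cluster therefore differed on 1 array, and without UD-2 replicate 1 the log2 difference of Ta.28750.2.A1_x_at was −1.31, against −0.93 without UD-2 replicate 2. For PsbP, TaAffx.120874.1.S1_x_at minus Ta.85.1.S1_at was −1.46 and −1.95 in WT and −1.97 and −2.12 in UD-2, which set WT replicate 1 apart from the other arrays.

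The genes of the complex did not keep a fixed ratio of signals between the lines. The PSBR mean minus PsbO was 0.02 and 0.33 in WT and −0.76 and −0.95 in UD-2, a shift of −1.03 on the log2 scale. The PSBR mean minus the PsbP mean was 0.79 and 1.24 in WT and 0.02 and −0.01 in UD-2, a shift of −1.01. PsbO minus the PsbP mean, by contrast, was 0.77 and 0.92 in WT and 0.78 and 0.95 in UD-2, a shift of 0.02. The last value averages opposite shifts of the PsbP probe sets. PsbO minus Ta.85.1.S1_at was 0.04 and −0.06 in WT and −0.20 and −0.11 in UD-2, a shift of −0.15 without overlap of the lines, and PsbO minus TaAffx.120874.1.S1_x_at shifted by 0.19, with the lines overlapping. Against the same probe sets the PSBR mean shifted by −1.18 and −0.85, with the UD-2 pools below the WT pools in both. These ratios use the contrast by which the clusters were picked and were not tested.

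**Figure D3:**
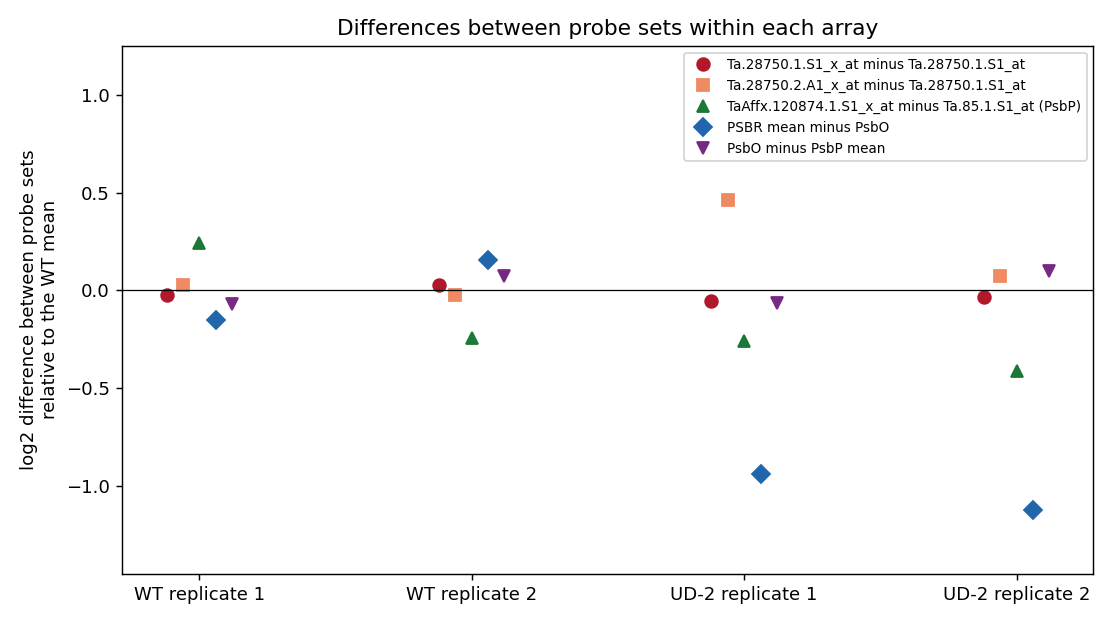
Log2 difference between probe sets within each array (vertical axis, relative to the mean of the WT arrays) for the 4 arrays. The PSBR mean minus PsbO (blue diamonds) falls to −0.94 and −1.13 in the UD-2 arrays, Ta.28750.2.A1_x_at minus PSBR S1_at (orange squares) is at 0.46 in UD-2 replicate 1 only, and PsbO minus the PsbP mean (purple triangles) stays between −0.07 and 0.10.

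All 6 probe sets were bright, at least 7.12 above the background level on every array on the log2 scale. Only 394 of the probe sets tested had a mean log2 signal of 12 or more over the 4 arrays, 5 members among them. Within these 394, 3 were lower in UD-2 by at least 1 on the log2 scale, and all were of the PSBR cluster, while 0 were higher by that much. Over the whole array, 0.668% of probe sets were lower by at least 1. The same 3 were the only probe sets of the 394 that passed the array-wide test. The boundary of 12 was set after the values were seen and the PSBR cluster was taken because it was called lower, so that these counts restate the choice and nothing is read from them.

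Differences between arrays were narrower for the brightest probe sets, the range that holds PsbO and Ta.85.1.S1_at. Among the 103 probe sets with a mean log2 signal of 13 or more, the middle 90% of log2 differences between the lines ran from −0.29 to 0.31, against −0.55 to 0.63 for the 8643 between 7 and 9. The median distance between the WT pools was 0.06 in the first range and 0.14 in the second. PsbO, at −0.28, was the lowest but 6 of those 103 probe sets, and Ta.85.1.S1_at, at −0.13, was the lowest but 24. TaAffx.120874.1.S1_x_at lay in the range from 11 to 12, where 39 of 797 probe sets, itself included, had a log2 difference as low. The clusters were chosen on this same difference, so these ranks only describe the members and nothing further is read from them. The highest log2 signal on any array was 14.57, and whether signals near it are compressed was not tested, since probe-level intensities were not analysed here.

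**Figure D4:**
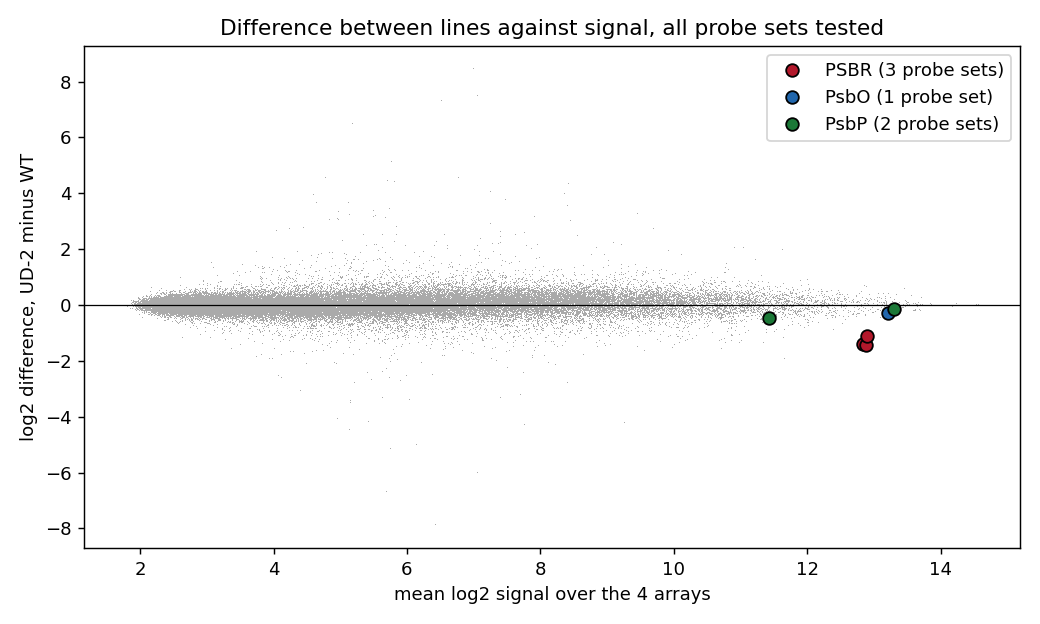
Log2 difference between UD-2 and WT (vertical axis) against the mean log2 signal over the 4 arrays (horizontal axis) for the 61115 probe sets tested (grey points), with the PSBR (red), PsbO (blue) and PsbP (green) probe sets marked. The PSBR probe sets are the 3 below −1 at a mean of 12 or more, and PsbO and PsbP lie within the cloud of bright probe sets or at its lower edge.

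Other photosynthesis genes were taken by name from the annotation, which gives a gene name or synonym for 200 of 61290 probe sets. It names no further subunit of photosystem II, no light-harvesting protein, no subunit of photosystem I and no factor of photosystem II assembly or repair. Carbon fixation was limited to nuclear genes. The lists held 6 probe sets of 4 genes, of which 0 were called higher and 0 lower in limma's test, against 0.712% called in either direction over the array, and 1 had an unadjusted p under 0.05, against 17.1% over the array. Of the 6, 3 were under the background level on all 4 arrays, among them Ta.198.1.S1_at of LOC543415, which has atpA but also the invertase name IVR1 among its synonyms. The median log2 difference was −0.12 over the 6. The plastid gene rbcl, outside these lists, was read by 28 probe sets, 14 of them under the background level on all 4 arrays. None of the 28 passed (0 calls in limma's test with either adjustment, 1 at an unadjusted p under 0.05), and their median log2 difference was −0.09. Their summed linear signal was 49297 and 49763 in WT and 49014 and 49482 in UD-2, so that the lines overlapped.

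The 3 genes above background differed in how far UD-2 lay from WT. For petC, the Rieske iron-sulfur protein that passes electrons on from photosystem II, Ta.861.1.S1_at had log2 signals of 13.49 and 13.39 in WT and of 13.31 and 13.32 in UD-2. Both UD-2 pools were under both WT pools, and its log2 difference of −0.12 did not pass the test (standard error 0.11, adjusted p = 0.432 from limma). For PRK, phosphoribulokinase, which regenerates the acceptor of carbon dioxide, Ta.23158.1.S1_at had 13.38 and 13.39 in WT and 13.31 and 13.39 in UD-2. The lines overlapped, with a log2 difference of −0.03 (standard error 0.11, adjusted p = 0.65 from limma). For FBP (synonym pre-FBPase), a fructose bisphosphatase, Ta.439.1.S1_at had 10.74 and 10.60 in WT and 9.99 and 10.18 in UD-2. Both UD-2 pools were lower, at 66.9% of the WT signal on average, and the log2 difference of −0.58 did not pass the test (standard error 0.13, adjusted p = 0.0978 from limma).

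The probe sets most like PSBR in pattern were sought by the Euclidean distance to PSBR S1_at over the 4 arrays, after each probe set's own mean log2 signal was subtracted. Outside the 4 clusters, the nearest of 61109 were Ta.8359.1.S1_s_at, listed by the study as an osmotin, at a distance of 0.07, Ta.9751.1.A1_at, listed as an ELMO/CED-12 family protein, at 0.09, and Ta.23348.1.A1_x_at, listed as an aspartic proteinase, at 0.10. Ta.8359.1.S1_s_at had log2 signals of 6.67 and 6.79 in WT and of 5.37 and 5.31 in UD-2. PSBR S1_x_at was at 0.06 and Ta.28750.2.A1_x_at at 0.38, and 64 probe sets outside the clusters were at least as near as the latter. PsbO was at 1.13, and PsbP at 1.26 and 1.05. Such likeness over 4 arrays mostly reflects the size of the difference between the lines.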

How the data were processed

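Pooled flag leaf RNA was hybridised to 4 biotin-labelled arrays, 2 for each line. The authors corrected, normalized and summarised the probe signals with RMA of Affy and deposited 1 log2 value for each probe set on each array. R 3.1.1 and limma stand in the submitters' processing notes. The version of Affy was not given in the sources used here. The 175 control probe sets were left out. The other 61115 were compared between lines by a linear model without covariates and moderated variances (limma 3.58.1, R 4.3.3). Storey-Tibshirani q-values served as adjusted p (threshold 0.05, lambda 0.05 to 0.95, unchanged share 0.708). Python 3.11.15 with pandas 2.3.3 gave the tables, and the plots came from matplotlib 3.10.9. The fit was tested on simulated data. Gene averages are means of log2 values over probe sets. The number of arrays limits precision.

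Gene IDs of 1272 of the 1273 annotated probe sets were found in the wheat RefSeq table (IWGSC CS RefSeq v2.1), which was used for names only. All members were named. Of other photosynthesis genes, the rule took probe sets past the threshold and the brightest 3 genes of each list, and the 3 probe sets nearest to PSBR in pattern. The members, lists and rules were chosen with earlier results of these data known. Alternatives were other p-value adjustments, variance models, filters and normalizations, the replicate number as a block, and each array omitted in turn.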

Additional observations from a re-analysis of the deposited data

How the results depend on the processing

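The PSBR, PsbO and PsbP averages stayed negative under quantile, median-centring and cyclic loess normalization. In that order, PsbO was at −0.27, −0.23 and −0.32, against −0.28 in the main fit. Ta.85.1.S1_at was at −0.09, −0.08 and −0.17, against −0.13, so its small difference varied with the normalization. With any 1 array left out the sign of the averages could not change, since both UD-2 pools were under both WT pools on every member. With 1 array left out they ran from −1.40 to −1.22 for PSBR, from −0.35 to −0.21 for PsbO and from −0.44 to −0.16 for PsbP. The PsbP average of −0.30 was −0.13 with Ta.85.1.S1_at alone and −0.47 with TaAffx.120874.1.S1_x_at alone. The 3 member calls were 2 with Benjamini-Hochberg adjustment, which lost Ta.28750.2.A1_x_at, at an adjusted p of 0.0498 from limma in the main fit. They were 0 with the replicate number as a block, where 4 members had an unadjusted p under 0.05 from limma. They were 0 with any 1 array left out, where 3 or 4 members had one. In those fits 1 line rests on a lone array, which is assumed to vary like the other line, and fewer arrays remain for the test. The other photosynthesis probe sets had 0 calls under every alternative run, brightest probe set per gene included. Over the array, the 435 calls were 240 with Benjamini-Hochberg adjustment, 837 with robust eBayes, 1724 without dim probe sets, 685 with quantile and 655 with cyclic loess normalization, and 1116 with median centring, which moved the share of lower calls from 39.5% to 28.6%. They were 27 with the replicate block (8497 at an unadjusted p under 0.05) and 0 with any 1 array left out (5114 to 8779). The cause of these changes was not tested. The study, which names the same test, adjustment and threshold, reported fewer transcripts in both directions than the main fit called, and the reason was not tested. The labels do not say whether same-numbered arrays were processed together. The deviations of same-numbered arrays from their line's mean correlated at −0.09 across probe sets, and a shared batch was not tested.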

Other observations

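Of other chloroplast proteins named in the annotation, 2 were looked up after the values had been seen. The thioredoxin m probe set Ta.136.1.S1_at (synonym Trx-M), for a small protein that reduces chloroplast enzymes in the light, had log2 signals of 13.06 and 13.17 in WT and of 13.00 and 13.23 in UD-2, so that the lines overlapped. Ta.14183.1.S1_at (synonyms CL9 and RPL9), for a ribosomal protein, had 9.51 and 9.56 in WT and 8.77 and 9.19 in UD-2, a log2 difference of −0.55 that did not pass the test (standard error 0.17, adjusted p = 0.147 from limma).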
